A study of Mus musculus with 54 samples.

Results

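The 6 libraries compared here were made from the suprachiasmatic nucleus (SCN) of mice sampled at ZT10, late in the light phase, or at ZT14, early in the dark phase, and were chosen by timepoint alone. They hold 6 of the 18 biological replicates of the series, 3 per timepoint. These make up 18 of its 54 samples, because each biological replicate was sequenced as 3 technical replicates. All mice were male C3H/HeH animals of 10 to 12 weeks in a 12:12 light/dark (LD) cycle, in which zeitgeber time (ZT) counts the hours from lights on and ZT12 is lights off, and neither group received a treatment or carried an engineered allele. Each replicate, named A, B or C, pooled laser-captured SCN from 5 animals, and its RNA was amplified with the SMARTer protocol before sequencing. The letters did not tie a ZT10 pool to a ZT14 pool.

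The SCN is the master circadian pacemaker of mammals. In its neurons CLOCK and BMAL1, the product of *Arntl*, act through E-box elements to raise transcription of the *Per*, *Cry* and *Nr1d* genes, and the products of these genes repress CLOCK and BMAL1 or the transcription of *Arntl*. Most SCN neurons release GABA, and separate groups of them also release vasopressin, vasoactive intestinal peptide or gastrin-releasing peptide. Light at night reaches these neurons as glutamate and PACAP from retinal fibres, which raises immediate early genes and *Per1*.

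Between 21148267 and 24025794 reads per replicate were counted on genes at ZT10 and between 32549849 and 35820945 at ZT14. Of the 30031 genes in the count table, 21700 had at least 1 read at ZT10 or ZT14, and 18941 genes that had reads in more than 6 of all 18 replicates were tested. Replicates of a timepoint differed by more than counting noise, the chi-square averaged over genes lying between 31.7 and 62.0 for each pair. In the study's principal component plot, whose legend names timepoint and sequencing batch, ZT6 and ZT10 formed one cluster and ZT14 and ZT18 another, so that a batch which follows these clusters cannot be told apart from time of day in ZT14 against ZT10. The count of genes that differed between ZT14 and ZT10 was 3189, and it lay between 2419 and 6402 for all 12 pairs of timepoints from different clusters, against between 6 and 108 for the 3 pairs within a cluster. A second deposited table, of normalized values from which whole reads were recovered, held different reads for the ZT10 columns. For ZT10 the 2 tables gave the same number of reads for 36.8% to 41.1% of the genes they share, and for ZT14 for 94.7% to 94.8%, and values from the recovered reads are given beside some of the main ones for this reason.

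Defining markers of the SCN were present in all 6 libraries, and levels of other cell types differed between them. Expression is given as CPM, the reads of a gene scaled to a common library total after TMM normalization. The summed level of 13 SCN neuron markers was between 5238 and 5972 CPM at ZT10 and between 2307 and 3125 CPM at ZT14, and that of 12 oligodendrocyte markers was between 1757 and 2166 CPM at ZT10 and between 4932 and 6132 CPM at ZT14. Each of these sums separated the timepoints without overlap, in opposite directions. At ZT18 the SCN sum was between 3109 and 3507 CPM and the oligodendrocyte sum between 5246 and 6285 CPM. At ZT6 they were between 6202 and 6654 CPM and between 1389 and 3242 CPM. *Vip*, whose levels are given below, was the largest part of the SCN sum at ZT10. The 10 markers of telencephalic excitatory neurons summed to between 238 and 525 CPM at ZT10 and between 1197 and 1799 CPM at ZT14, and at least 1 read of every one of them was counted in each of the 6 libraries. In every ZT14 library *Camk2a* alone, whose levels are given below, made up most of this sum, and 3 of the 10 markers were called. A list of 14 genes of striatal projection neurons, drawn up after the values of *Penk*, *Tac1*, *Pdyn*, *Scn4b* and *Adcy5* had been seen and therefore given with no test, summed to 533, 421 and 444 CPM in the ZT10 replicates and to 3126, 3976 and 607 CPM in ZT14 replicates A, B and C. The 9 genes of that list other than those 5 summed to between 144.0 and 209 CPM at ZT10 and to 1173, 1699 and 265 CPM at ZT14. ZT14 replicates A and B thus stood apart from replicate C, and the part of either region's neurons in the differences below was not tested. In pooled tissue, fewer cells of a type and less RNA per cell cannot be told apart.

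**Figure D1:**
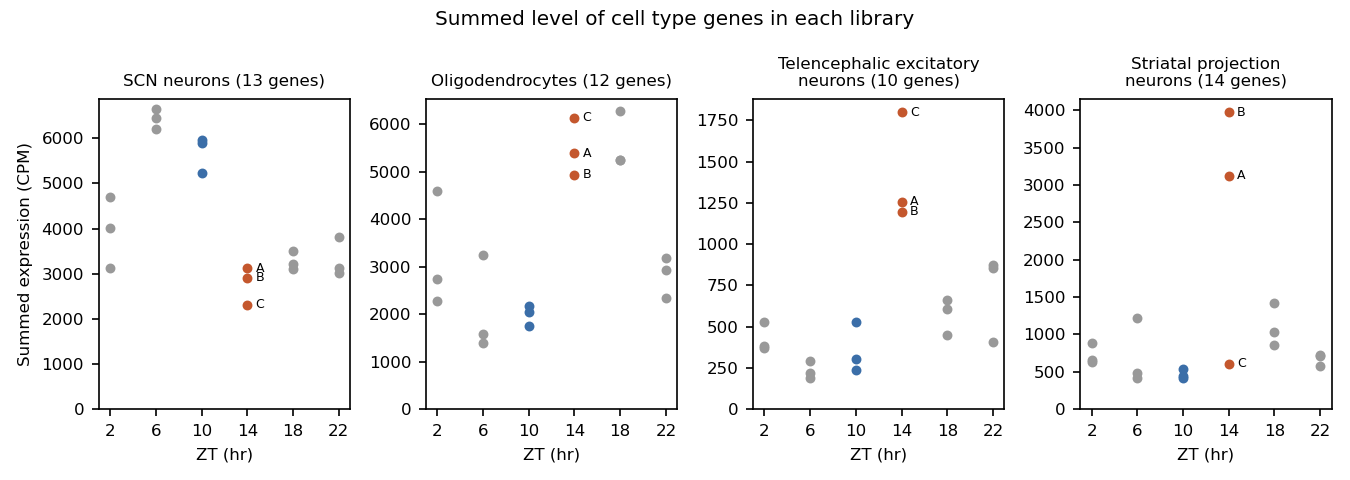
Summed expression in CPM (y axis, from 0) of 4 lists of cell type genes in each of the 18 libraries (points) against ZT in hr (x axis), with ZT10 in blue, ZT14 in orange and lettered by replicate, and the other timepoints in grey. The SCN neuron sum was at most 3125 CPM and the oligodendrocyte sum at least 4932 CPM at ZT14, and the striatal sum was 3126 and 3976 CPM in replicates A and B but 607 CPM in replicate C.

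Of the 18941 genes tested, 3189 (16.8%) differed between ZT14 and ZT10 at a Benjamini–Hochberg q under 0.05 in edgeR's quasi-likelihood test. At ZT14 1764 genes (9.31%) were higher and 1425 (7.52%) were lower. The genes that were higher had a median change of 2.37-fold, with 1207 at 2-fold or more and 350 at 4-fold or more. The genes that were lower had a median change of 2.00-fold, with 715 at 2-fold or more and 141 at 4-fold or more. The median log2 difference over all tested genes was 0.12, and the values below stand against that shift. Counts of called genes in the lists below likewise stand against the shares of 9.31% higher and 7.52% lower. Without ZT10 replicate B the count was 1990, without ZT14 replicate A it was 2007, and with replicate C as the only ZT14 library, whose spread is then taken from the other groups, 888 genes were called, 441 of them higher. The recovered reads gave 3817 of 20822 genes (18.3%), 2237 higher (10.7%) and 1580 lower (7.59%). Of 18539 genes tested from both sets of reads, 2527 were called in the same direction from both, 70 in opposite directions (all 70 lower in the count table, 56 of them pseudogenes), 564 from the count table only and 845 from the recovered reads only. An unadjusted p under 0.05 was found for 30.1% of genes. For ZT14 minus ZT10 the split between higher and lower genes depended on scaling, with 878 higher (4.64%) and 1526 lower (8.06%), 12.7% in all, once a trend with transcript length was removed from each library, 1261 and 1918 after the same for GC content, and 1331 and 1870 with upper-quartile normalization.

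The largest differences in either direction were of different kinds. Of the 10 protein-coding genes with the highest log2 differences, 6 lie on chromosome 19 of GRCm38 between 4035407 and 4195420 and 2 on chromosome 4 between 143267431 and 143421091. The chromosome 19 genes include *Gstp1* (a glutathione transferase), *Cdk2ap2*, *Pitpnm1*, *Coro1b* and *Ppp1ca* (a catalytic subunit of protein phosphatase 1). *Gstp1* had 0.437, 0.347 and 0.236 CPM at ZT10 and 264, 275 and 245 CPM at ZT14, and *Ppp1ca* had 5.29, 8.42 and 5 CPM at ZT10 and 378, 319.6 and 339 CPM at ZT14. Replicates that did not overlap and a call in the same direction from the recovered reads were conditions for naming the 10 highest genes. Of the 12 tested genes inside this chromosome 19 interval, 10 were higher at ZT14 and 0 lower, and together they held between 156 and 252 reads per ZT10 library and between 38023 and 44376 per ZT14 library. ZT6 libraries held between 127 and 214 reads there and ZT18 libraries between 18668 and 45112, so the interval was nearly empty in both timepoints of the ZT10 cluster. The same held for *Pdpn* and *Pramef8* on chromosome 4, with 2 to 3 reads per ZT10 library in their interval. *Myadm*, on chromosome 7, had 0.194, 0.0434 and 0.0944 CPM at ZT10 and 48.1, 38.3 and 47.6 CPM at ZT14. Its interval there, from 3289080 to 3331099, held 4 to 13 reads per ZT10 library and 2 to 7 per ZT6 library. The same interval held 5665 to 8013 reads per ZT14 library and 794 to 3644 per ZT18 library. In the recovered reads *Gstp1* differed by a log2 of 11.71.

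Among the 10 protein-coding genes with the lowest log2 differences were the SCN peptides *Avp* and *Prok2* and the ribosomal proteins *Rpl13*, *Rpl17*, *Rpl23a* and *Rps13*. *Nnmt*, which methylates nicotinamide, had the lowest difference of them, with 36.7, 38.1 and 31.2 CPM at ZT10 and 1.45, 2.44 and 2.91 CPM at ZT14 (log2 difference -3.96, SE 0.41, q = 7.59e-06). *Pter* had 341, 348 and 386 CPM at ZT10 and 78.8, 89.5 and 63.6 CPM at ZT14 (log2 difference -2.21, SE 0.28, q = 5.26e-05). The remaining genes were *Creb3l1*, an endoplasmic reticulum-bound transcription factor, with a log2 difference of -2.26 (q = 0.0164), and *Rspo3*, a secreted enhancer of Wnt signalling, with -2.62 (q = 0.00342). Replicates that did not overlap were again a condition for naming these 10. Over all tested genes 18.5% had every ZT14 replicate below ZT10, 25.3% had every ZT14 replicate above ZT10, and 43.8% were separated either way.

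The clock itself differed between the timepoints in both directions. Of 11 clock repressors 2 were higher at ZT14 and 2 lower, and of 9 clock activators and output factors 3 were higher and 2 lower. Over all tested genes 9.31% were higher and 7.52% lower. The median log2 difference was -0.24 for the repressors and 0.47 for the activators. Removing the length trend left 2 repressors higher and 4 lower, with a median of -0.67, and 0 activators higher and 3 lower, with a median of 0.06. In the recovered reads 2 activators were higher and 2 lower, and their median was -0.14 once the length trend was removed as well.

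The core promoters of several of these genes hold the canonical E-box CACGTG. The printed stretches show where, since calls among the genes that carry it were mixed. RefSeq promoters (GRCm38.p6, from 250 bases before to 50 after the transcription start) were matched for 9 of the 11 repressors, 8 of the 9 activators and 15 of 17 SCN peptides. The E-box, which reads the same on both strands, was present for 4 repressors (*Bhlhe41*, *Ciart*, *Cry1* and *Per1*), 1 activator (*Tef*) and 4 peptides (*Avp*, *Cck*, *Prok2* and *Tac1*), against 8.09% of the 27025 genes with a promoter. Capitals mark the E-box, and each stretch is given 5′ to 3′ on the strand of its gene.
Avp, chr2:130582710-130582739, minus strand, lower at ZT14: cactgacaggccCACGTGtgtccccagatg
Prok2, chr6:99726510-99726539, minus strand, lower at ZT14: tggggcgcggggCACGTGcgcgtgtgcgcg
Bhlhe41, chr6:145865556-145865585, minus strand, lower at ZT14: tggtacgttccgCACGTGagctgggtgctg
Tef, chr15:81811264-81811293, plus strand, the downstream of 2 starts with an E-box, higher at ZT14: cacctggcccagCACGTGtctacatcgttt
Per1, chr11:69098771-69098800, plus strand, not called: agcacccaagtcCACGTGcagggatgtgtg
Cry1, chr10:85185097-85185126, minus strand, not called: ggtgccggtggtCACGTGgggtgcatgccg
Ciart, chr3:95882327-95882356, minus strand, not called: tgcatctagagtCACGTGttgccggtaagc
The E-box began 139 bases before the start in *Avp*, 135 in *Prok2*, 153 in *Bhlhe41*, 138 in *Tef*, 166 in *Per1*, 60 in *Cry1* and 116 in *Ciart*, whose promoter holds 2 further E-boxes. *Tef*, the only printed gene called higher, was not called in the recovered reads or with the length trend removed. *Per1*, *Cry1* and *Ciart*, not called, had negative log2 differences. A D-box (TTATGTAA on either strand, in 1.11% of genes) was found for *Per3* alone among these 2 clock lists, and a cAMP response element (TGACGTCA, in 2.03% of genes) for *Hlf* alone.

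*Bhlhe40*, which encodes a repressor of CLOCK and BMAL1, rose most among the repressors, with 41.2, 33.6 and 31.4 CPM at ZT10 and 176, 79.8 and 165 CPM at ZT14 (log2 difference 1.99, SE 0.26, q = 6.94e-05). All ZT14 values were above all ZT10 values, although replicate B was well below replicates A and C. Its paralogue *Bhlhe41* went the other way, with 211, 150.2 and 369 CPM at ZT10 and 132, 146 and 126 CPM at ZT14 (log2 difference -0.85, SE 0.27, q = 0.0392), and its replicates did not overlap. *Cry2* had 56.1, 36 and 65.9 CPM at ZT10 and 128, 121 and 136 CPM at ZT14 (log2 difference 1.28, SE 0.30, q = 0.0067), with ZT14 above ZT10 in every replicate. *Cry1* had 63.3, 54.4 and 52.4 CPM at ZT10 and 33.5, 39.6 and 31.1 CPM at ZT14 and was lower in every ZT14 replicate, but did not pass the threshold (log2 difference -0.71, SE 0.25, q = 0.0657), which it did in the recovered reads (q = 0.0333).

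*Nr1d2* encodes REV-ERBβ, a nuclear receptor that represses *Arntl*. It had 82.2, 71.3 and 83 CPM at ZT10 and 40.0, 38.9 and 28.4 CPM at ZT14 and fell at ZT14 (log2 difference -1.14, SE 0.32, q = 0.0185). *Nr1d1*, encoding REV-ERBα, had 118, 106 and 101 CPM at ZT10 and 203, 141 and 217 CPM at ZT14 and was not called (q = 0.489), and its reads cannot be told apart from those of the overlapping gene *Thra* without strand. *Nfil3*, which represses D-box transcription, had 7.13, 2.34 and 4.34 CPM at ZT10 and 12.2, 12 and 13.8 CPM at ZT14 (q = 0.0778). The REV-ERB pair and *Nfil3* thus gave 1 call in 3.

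No *Per* gene passed the threshold between ZT10 and ZT14. *Per1* had 33.5, 31.6 and 44.6 CPM at ZT10 and 29.1, 33 and 30.9 CPM at ZT14, with overlapping replicates (log2 difference -0.24, q = 0.628). *Per2* had 96.7, 105 and 116 CPM at ZT10 and 73, 59.6 and 76 CPM at ZT14 and was lower in every ZT14 replicate without passing the threshold (log2 difference -0.61, SE 0.28, q = 0.155), and it passed once the length trend was removed (q = 0.00881). *Per3* (log2 difference -0.27, q = 0.67) and *Ciart* (-0.11, q = 0.916) had overlapping replicates. Set against ZT18, however, *Per1* was higher at ZT14 by a log2 of 1.45 (q = 0.0324) and *Per2* by 1.32 (q = 0.047).

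Among the activators, *Dbp* and *Rora* fell and *Clock*, *Npas2* and *Tef* rose. *Dbp*, a D-box activator under direct control of CLOCK and BMAL1, had 60.6, 60.9 and 48.1 CPM at ZT10 and 21.4, 23.5 and 11.7 CPM at ZT14 (log2 difference -1.58, SE 0.25, q = 0.000313). *Rora*, a nuclear receptor that activates *Arntl*, had 547, 536 and 522 CPM at ZT10 and 264, 212 and 226 CPM at ZT14 (log2 difference -1.19, SE 0.18, q = 0.000258). Both separated the timepoints without overlap and were called whichever of the 18 replicates was omitted. *Tef*, a relative of *Dbp*, had 144, 149 and 164 CPM at ZT10 and 196, 219.5 and 230.4 CPM at ZT14 (log2 difference 0.50, SE 0.14, q = 0.0205), although it was not called in the recovered reads (q = 0.152) and its log2 difference was 0.07 once the length trend was removed and -0.14 in the recovered reads treated in the same way.

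Neither *Clock* nor *Npas2* was called once the length trend was removed, with log2 differences of 0.19 (q = 0.647) and 1.08 (q = 0.141). *Clock* had 39, 32 and 48.2 CPM at ZT10 and 79.1, 66.7 and 62.8 CPM at ZT14 (log2 difference 0.81, SE 0.25, q = 0.031) and *Npas2*, its paralogue, had 2.81, 2.13 and 6.09 CPM at ZT10 and 10.1, 10.8 and 9.84 CPM at ZT14 (log2 difference 1.48, SE 0.49, q = 0.0466). Both were higher in every ZT14 replicate, and they were called in 13 and 7 of 18 fits, each omitting a different replicate. *Arntl* had 42, 31.8 and 38.9 CPM at ZT10 and 72, 37.7 and 46 CPM at ZT14, with overlapping replicates (log2 difference 0.47, q = 0.24). *Hlf* (log2 difference -0.08, q = 0.742) and *Rorb* (0.53, q = 0.119) were not called. Of 10 genes of clock protein turnover 1 was called, *Btrc* (log2 difference 0.90, q = 0.0411), a ubiquitin ligase subunit that targets PER proteins, while 0 were higher and 3 lower with the length trend removed and 1 was higher and 2 lower in the recovered reads.

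**Figure D2:**
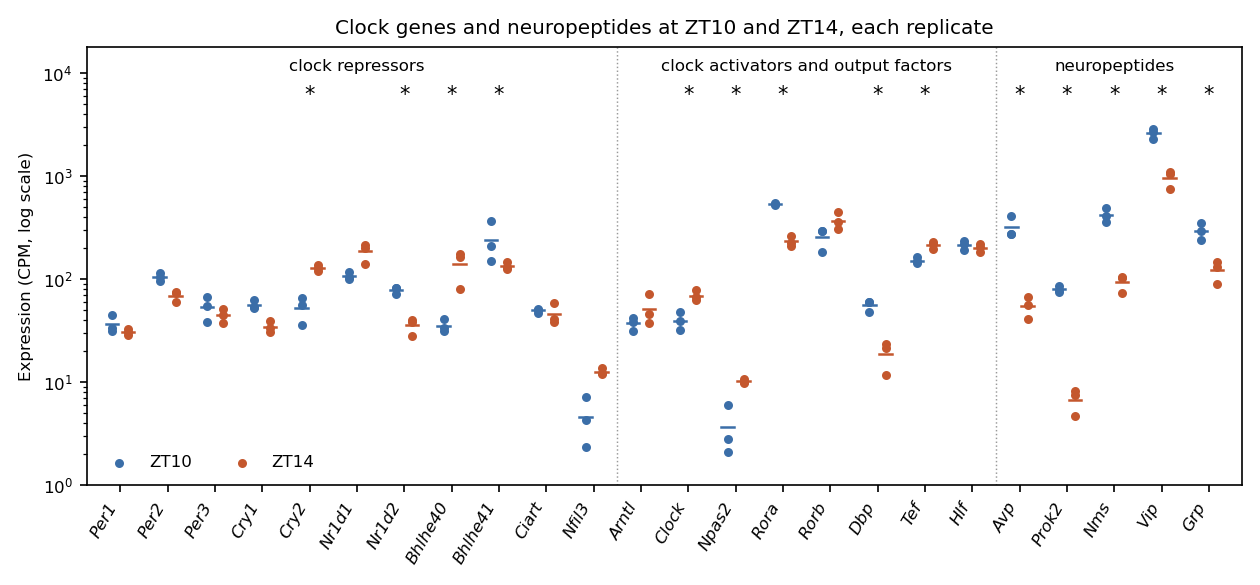
Expression in CPM (y axis, log scale) of 19 clock genes and 5 SCN peptides in each ZT10 replicate (blue points) and each ZT14 replicate (orange points), with horizontal bars at the means of 3 replicates and a star where edgeR's q was under 0.05. The 5 peptides at the right lay lower at ZT14 in every replicate, while *Per1* and *Per3* overlapped.

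The peptides that define SCN neurons fell together. Of 17 SCN neuropeptide genes 5 were lower at ZT14, all 5 of them defining SCN peptides, and 2 were higher. Over all tested genes 7.52% were lower and 9.31% higher. *Prok2*, a secreted output signal of the SCN, fell most, with 79.3, 75.9 and 87.1 CPM at ZT10 and 8.14, 7.52 and 4.7 CPM at ZT14 (log2 difference -3.57, SE 0.49, q = 0.000106). *Avp*, encoding vasopressin, had 276, 278 and 410.4 CPM at ZT10 and 56.2, 66.6 and 40.8 CPM at ZT14 (log2 difference -2.56, SE 0.32, q = 4.08e-05). *Nms*, encoding neuromedin S, had 411, 497 and 359 CPM at ZT10 and 102, 106 and 73 CPM at ZT14 (log2 difference -2.17, SE 0.20, q = 2.62e-06). In these 3 genes the lowest ZT10 value was at least 3 times the highest ZT14 value.

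*Vip*, encoding vasoactive intestinal peptide, was the most abundant of them, with 2693, 2880 and 2283 CPM at ZT10 and 1053, 1090 and 747 CPM at ZT14 (log2 difference -1.44, SE 0.25, q = 0.000799). *Grp*, encoding gastrin-releasing peptide, had 294, 350.1 and 239 CPM at ZT10 and 132, 148 and 90.8 CPM at ZT14 (log2 difference -1.25, SE 0.27, q = 0.00404). Both were lower in every ZT14 replicate, and all 5 peptides were also lower when replicate C was the only ZT14 library, with q between 0.000517 and 0.0228. The 2 peptides that were higher, *Penk* (enkephalin) and *Tac1* (substance P), are on the striatal list. That list was drawn up after their values had been seen, so their likeness to it carries no weight. *Penk* had 236, 214 and 151 CPM at ZT10 and 1226, 1392 and 171 CPM at ZT14 (log2 difference 2.21, SE 0.58, q = 0.0137) and *Tac1* had 14.6, 3.17 and 3.07 CPM at ZT10 and 98.3, 106 and 14.9 CPM at ZT14 (log2 difference 3.40, SE 1.02, q = 0.0281). Replicate C lay within the ZT10 range for *Penk* and close above it for *Tac1*. In replicate C alone neither was called, with q = 0.849 and 0.715.

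Some other genes of SCN neurons were also lower, against 7.52% of all tested genes that were lower. Of 13 SCN neuron markers 8 were lower and 1 higher, with a median log2 difference of -1.25. This list includes *Prok2*, *Avp*, *Nms*, *Vip* and *Grp*, and its lower members outside these peptides were *Six3*, *Six6* and *Rgs16*. Of 12 SCN transcription factors 3 were lower and 0 higher. Removing the length trend gave 10 and 5 lower, respectively, and 0 higher in either list. *Six3*, a homeobox factor needed to form the SCN, had 261, 252 and 263 CPM at ZT10 and 78.1, 99.2 and 56.5 CPM at ZT14 (log2 difference -1.73, SE 0.19, q = 1.19e-05) and *Six6* had 191, 208 and 147 CPM at ZT10 and 83.7, 72.4 and 65.4 CPM at ZT14 (log2 difference -1.30, SE 0.23, q = 0.000836). *Rgs16*, a regulator of G protein signalling, had 140.4, 104 and 142 CPM at ZT10 and 71.9, 68.7 and 57.4 CPM at ZT14 (log2 difference -0.96, SE 0.22, q = 0.00478). Each of the 3 was lower in every ZT14 replicate. The marker that was higher, *Prokr2*, is the receptor of PROK2 and had 169, 139.7 and 153 CPM at ZT10 and 349, 241 and 259 CPM at ZT14 (log2 difference 0.88, SE 0.19, q = 0.00415), so ligand and receptor differed in opposite directions. *Lhx1* (log2 difference -0.41, q = 0.336) and *Zfhx3* (-0.11, q = 0.805) were not called.

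Several genes of secretory granule proteins also fell, while some peptide receptors rose. Shares over all tested genes were 7.52% lower and 9.31% higher. Of 11 granule proteins 5 were lower and 0 higher, with a median log2 difference of -0.53, and 4 were lower with the length trend removed. *Vgf*, a granin-like peptide precursor, had 172, 148 and 143 CPM at ZT10 and 91.7, 76.9 and 50.4 CPM at ZT14 (log2 difference -1.08, SE 0.25, q = 0.0067), and *Pcsk1n*, an inhibitor of prohormone convertase 1, had 163, 211 and 193 CPM at ZT10 and 94, 102 and 78.5 CPM at ZT14 (log2 difference -1.05, SE 0.16, q = 0.000242). The other 3 were *Chga* (q = 0.0394), *Scg5* (q = 0.00798) and *Cpe* (q = 0.0241). Of 20 peptide receptors 4 were higher and 0 lower, with a median of 0.77, and 1 was higher with the length trend removed. They included *Adcyap1r1*, the PACAP receptor through which retinal fibres act, with 88.1, 99 and 117 CPM at ZT10 and 175, 161 and 196 CPM at ZT14 (log2 difference 0.81, SE 0.21, q = 0.0123). This call was lost in the recovered reads (log2 difference 0.59, q = 0.0603) and after removal of the length trend (0.31, q = 0.396). *Vipr2*, the receptor for vasoactive intestinal peptide, had 190.3, 173 and 184 CPM at ZT10 and 249.9, 216 and 226 CPM at ZT14 and was not called (q = 0.288).

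Cytosolic ribosomal protein genes were lower at ZT14 as a body. Of 77 cytosolic ribosomal protein genes 70 were lower and 0 higher, with a median log2 difference of -1.38, against 7.52% of all tested genes that were lower. Their summed level fell from between 33725 and 38114 CPM at ZT10 to between 13490 and 15688 CPM at ZT14. *Rps15a*, of the small subunit, had 477, 502 and 482 CPM at ZT10 and 100.0, 127 and 131 CPM at ZT14 (log2 difference -2.03, SE 0.17, q = 6.24e-07), and *Rpl30*, of the large subunit, had 356, 386 and 358 CPM at ZT10 and 76.8, 97.8 and 85.9 CPM at ZT14 (log2 difference -2.08, SE 0.17, q = 6.24e-07). *Rps13* had 260.3, 289 and 229.8 CPM at ZT10 and 49.1, 57.9 and 49.7 CPM at ZT14 (log2 difference -2.31, SE 0.21, q = 2.5e-06). In 74 of the 77 genes every ZT14 replicate lay below every ZT10 replicate, against 18.5% of all tested genes. The recovered reads called 65 lower and 3 higher, and ribosomal protein genes have many processed copies in the genome between which reads may be shared.

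Transcripts of ribosomal proteins are short, with a median of 937 bases against 2649 for all tested genes, and differences followed length across all genes. With the length trend removed 63 of the 77 were lower and 0 higher, and the median was -1.07. With replicate C as the only ZT14 library 53 were lower. Within the ZT14 cluster the median of ZT14 minus ZT18 was -0.42 with 0 of the 77 genes called, and within the ZT10 cluster that of ZT10 minus ZT6 was -0.05 with 0 called.

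Many nuclear genes of mitochondria were lower as well, against 7.52% of all tested genes that were lower. Of 74 mitochondrial ribosomal proteins 26 were lower and 0 higher, against 19 and 1 with the length trend removed, among them *Mrps33* with 299, 313 and 295 CPM at ZT10 and 114, 144 and 104 CPM at ZT14 (log2 difference -1.33, SE 0.17, q = 4.76e-05). Of 78 nuclear-encoded subunits of respiratory complexes and ATP synthase 48 were lower and 1 higher, with a median log2 difference of -0.77, and 20 were lower and 1 higher with the length trend removed. *Cox5b*, a subunit of cytochrome c oxidase, had 397, 492 and 369.5 CPM at ZT10 and 119, 123 and 132 CPM at ZT14 (log2 difference -1.75, SE 0.19, q = 1.19e-05), and *Ndufs5*, of complex I, had 314, 385 and 311 CPM at ZT10 and 102, 128 and 99.6 CPM at ZT14 (log2 difference -1.62, SE 0.18, q = 1.4e-05). Every ZT14 replicate lay below every ZT10 replicate at 49 of 74 and 65 of 78 genes of these lists, against 18.5% of all tested genes.

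Of 8 proteins encoded by the mitochondrial genome that were tested 1 was lower and 2 higher. *mt-Co1*, by far the most abundant of the 3, had 6028, 4562 and 6926 CPM at ZT10 and 2102, 3248 and 2426 CPM at ZT14 (log2 difference -1.17, SE 0.24, q = 0.00284), while *mt-Co2* and *mt-Co3* stayed under 10 CPM in each library. Mitochondrial genes took between 6.57% and 8.16% of the counted reads at ZT10 and between 2.75% and 4.62% at ZT14.

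Of 37 proteasome subunits 12 were lower and 2 higher, against 6 and 1 with the length trend removed, with a median of -0.44, and *Psmb4*, of the catalytic core, had 237, 289 and 265 CPM at ZT10 and 105, 126 and 113 CPM at ZT14 (log2 difference -1.20, SE 0.19, q = 0.000337). Of 55 translation factors 12 were lower and 3 higher, among them *Eif3f* with a log2 difference of -1.21 (q = 0.000675). Of 64 splicing factors 15 were lower and 4 higher, and *Hnrnpa1*, an hnRNP protein that binds pre-mRNA, had 134, 116 and 149 CPM at ZT10 and 44, 46.9 and 36.5 CPM at ZT14 (log2 difference -1.65, SE 0.19, q = 2.39e-05). The translation and splicing lists have median lengths of 2542 and 2763 bases, near that of all tested genes, and had medians of -0.29 and -0.43, 11 and 20 genes lower, and 1 and 0 genes higher with the length trend removed. Before that removal the shares over all tested genes were 7.52% lower and 9.31% higher.

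The cold-inducible RNA-binding proteins, whose transcripts follow body temperature, were both lower. *Cirbp* had 666, 892 and 506 CPM at ZT10 and 312, 303 and 273 CPM at ZT14 (log2 difference -1.22, SE 0.25, q = 0.00254). *Rbm3* had 49.6, 64.8 and 44.8 CPM at ZT10 and 19.3, 29.5 and 26.6 CPM at ZT14 (log2 difference -1.08, SE 0.29, q = 0.0141). Neither overlapped between the timepoints. Of 20 chaperones 4 were higher and 2 lower, against 2 and 3 with the length trend removed, with a median of 0.27 that was -0.15 in the recovered reads with the length trend removed. *Dnajb1*, a heat-inducible co-chaperone, had 72.9, 96.7 and 70.1 CPM at ZT10 and 247, 187 and 202 CPM at ZT14 (log2 difference 1.41, SE 0.20, q = 0.00017), and *Hspe1*, the mitochondrial co-chaperonin, had 286, 309 and 299 CPM at ZT10 and 141, 167 and 142 CPM at ZT14 (log2 difference -0.99, SE 0.14, q = 0.000173).

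Some genes of metabolism outside the mitochondrion rose, against 9.31% of all tested genes that were higher. Of 16 glycolysis genes 7 were higher and 0 lower, with a median of 0.58, and 6 were higher with the length trend removed. *Pfkp*, a phosphofructokinase, had 101, 73.3 and 82.3 CPM at ZT10 and 237, 251 and 289 CPM at ZT14 (log2 difference 1.60, SE 0.25, q = 0.000324), *Pfkm* had 202, 212 and 179 CPM at ZT10 and 380.0, 336 and 472 CPM at ZT14 (log2 difference 1.00, SE 0.17, q = 0.000605), and *Eno2*, the neuronal enolase, had 574, 556 and 440.2 CPM at ZT10 and 1337, 1050 and 1163 CPM at ZT14 (log2 difference 1.18, SE 0.25, q = 0.00288). These 3 were higher in every ZT14 replicate. Of 22 genes of cholesterol synthesis 5 were higher and 0 lower, against 1 higher with the length trend removed, among them *Hmgcs1*, the synthase ahead of the rate-limiting reductase, with 214, 147 and 163 CPM at ZT10 and 392, 324 and 347 CPM at ZT14 (log2 difference 1.02, SE 0.18, q = 0.00088). Of 14 glucocorticoid receptors and response genes 2 were lower and 0 higher, the metallothioneins *Mt1* (log2 difference -0.91, q = 0.00746) and *Mt2* (-1.15, q = 0.00129), against a list median of 0.41 that was -0.13 in the recovered reads with the length trend removed.

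**Figure D3:**
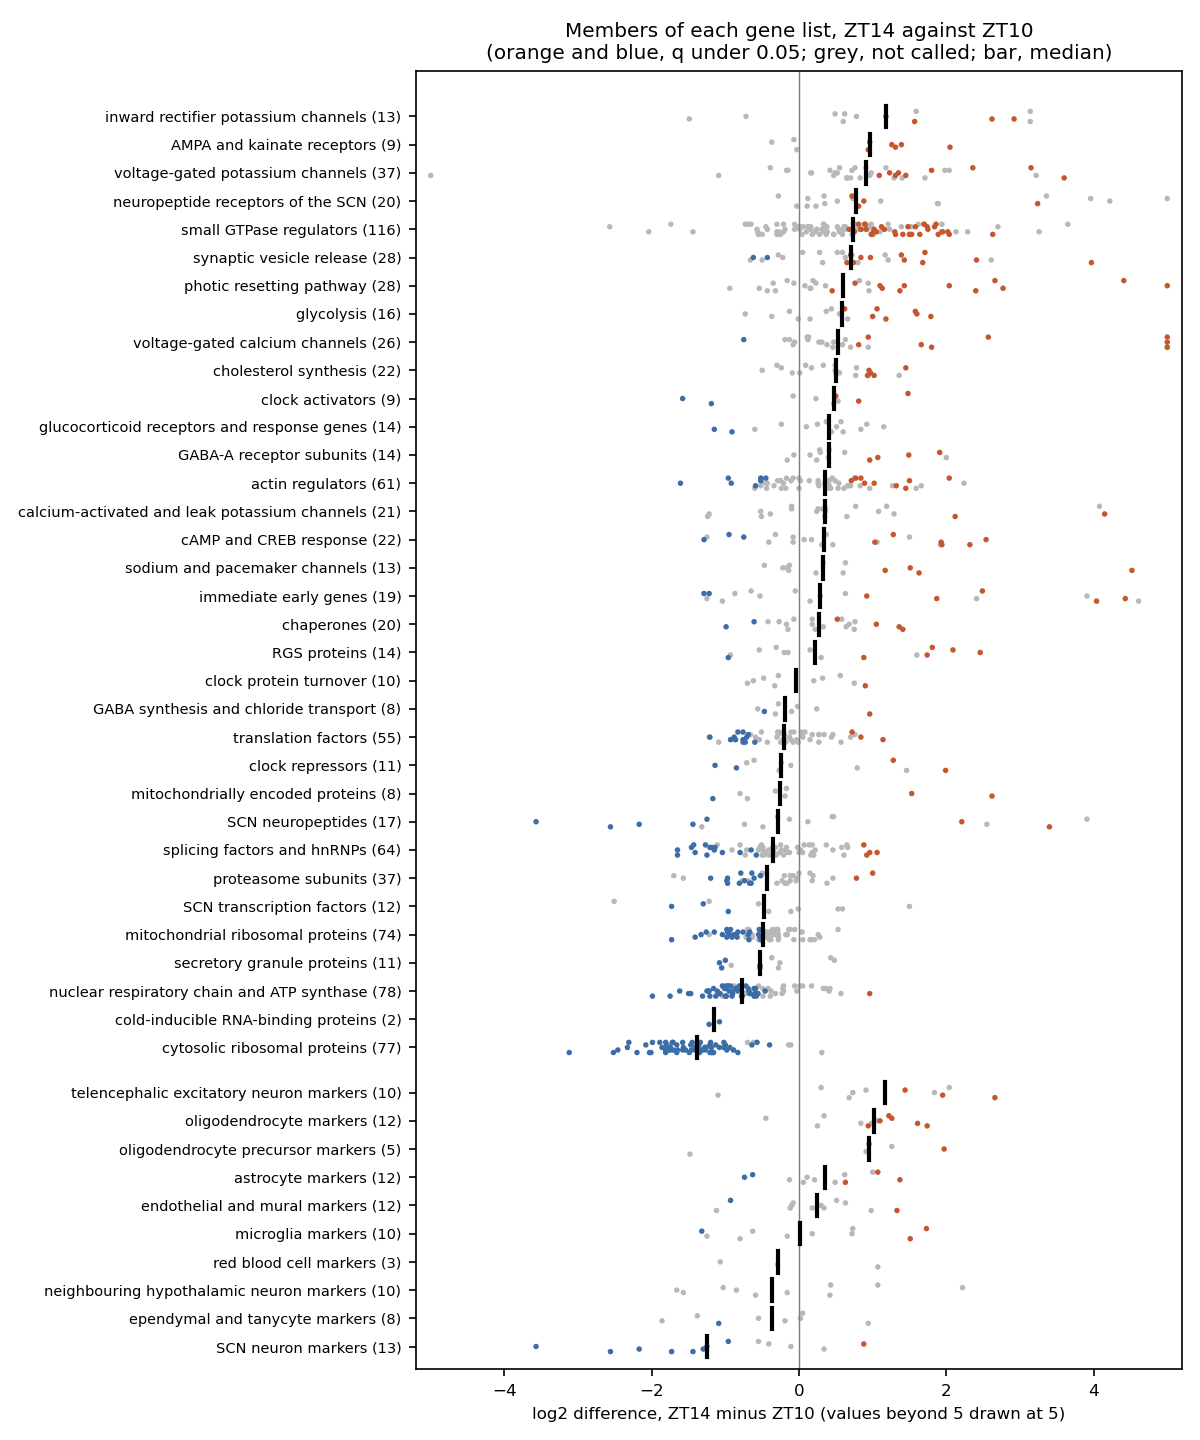
Log2 difference of ZT14 minus ZT10 (x axis) for every tested member of 34 gene lists and 10 marker lists (y axis, number of members in brackets), with genes at q under 0.05 in orange where higher and blue where lower at ZT14, other genes in grey, black bars at the medians, and values beyond 5 drawn at 5. The cytosolic ribosomal proteins lie almost wholly to the left, 70 of 77 blue, and the small GTPase regulators hold 33 orange and 0 blue points among 116.

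Genes that carry the response to light were among those higher at ZT14. Of 28 genes of the photic resetting pathway, which carries the retinal signal from glutamate receptors to the nucleus, 12 were higher and 0 lower, against 7 and 0 with the length trend removed. Among all tested genes 9.31% were higher and 7.52% lower, and with that trend removed 4.64% and 8.06%. The median log2 difference was 0.60, 0.09 with the length trend removed, and -0.09 in the recovered reads treated in the same way. The recovered reads called 9 higher and 1 lower. *Grin2b*, an NMDA receptor subunit, had 86.2, 49.7 and 72.6 CPM at ZT10 and 427, 374 and 298 CPM at ZT14 (log2 difference 2.40, SE 0.30, q = 4.38e-05). *Itpr1*, the calcium release channel of the endoplasmic reticulum, had 49.9, 23.9 and 40.9 CPM at ZT10 and 289, 268 and 226 CPM at ZT14 (log2 difference 2.77, SE 0.27, q = 4.33e-06). *Camk2a*, a calcium-dependent kinase that is also on the telencephalic marker list, had 132, 116 and 243 CPM at ZT10 and 868, 896 and 1334 CPM at ZT14 (log2 difference 2.66, SE 0.33, q = 4.66e-05). All 3 were at least 2 times as high in the lowest ZT14 replicate as in the mean of ZT10. Among the other CAMK2 subunits *Camk2b* was higher (log2 difference 1.37, q = 0.000341) and *Camk2d* (0.16, q = 0.737) and *Camk2g* (0.08, q = 0.791) not called.

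Immediate early genes, which are switched on within minutes of neuronal activity, were divided. Their calls stand against 9.31% higher and 7.52% lower over all tested genes. Of 19 genes 5 were higher (*Arc*, *Egr1*, *Egr2*, *Nr4a1* and *Fosl2*) and 2 lower (*Jund* and *Nr4a3*), against 4 and 3 with the length trend removed, where the median of 0.29 became -0.05. *Arc*, a synaptic capsid-like protein, had 11.6, 6.94 and 19.7 CPM at ZT10 and 298, 94.8 and 234 CPM at ZT14 (log2 difference 4.04, SE 0.55, q = 9.64e-05). *Egr1*, a zinc finger factor, had 14.3, 18.2 and 31.3 CPM at ZT10 and 93.2, 58.9 and 82 CPM at ZT14 (log2 difference 1.87, SE 0.35, q = 0.00145). *Nr4a1*, an orphan nuclear receptor, had 9.32, 10.3 and 10.6 CPM at ZT10 and 75.6, 31.9 and 62 CPM at ZT14 (log2 difference 2.49, SE 0.45, q = 0.00108). In these 3 genes ZT14 replicate B was the lowest of its timepoint and still above every ZT10 replicate. *Fos* itself had 26.8, 41.8 and 27.8 CPM at ZT10 and 34.7, 20.4 and 38 CPM at ZT14 and was not called (q = 0.963), and *Jund* had 42.9, 49.3 and 46.7 CPM at ZT10 and 21.6, 20.6 and 17.3 CPM at ZT14 (log2 difference -1.22, SE 0.19, q = 0.000331).

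Of 22 genes of cAMP and CREB signalling 6 were higher and 3 lower, with 4 of each and a median of -0.15 in place of 0.34 with the length trend removed. With the trend left in, 9.31% of all tested genes were higher and 7.52% lower. *Dusp6*, a phosphatase of ERK, had 9.27, 12.2 and 11.9 CPM at ZT10 and 73.2, 42.5 and 78.6 CPM at ZT14 (log2 difference 2.54, SE 0.30, q = 2.46e-05), and *Adcy1*, a calcium-stimulated adenylyl cyclase, had 35.8, 30.8 and 77.5 CPM at ZT10 and 206, 202 and 312 CPM at ZT14 (log2 difference 2.32, SE 0.42, q = 0.00111). *Adcy5*, an adenylyl cyclase abundant in the striatum, had 55.8, 49.6 and 57 CPM at ZT10 and 243, 289 and 86.2 CPM at ZT14 (log2 difference 1.93, SE 0.32, q = 0.0006), and replicate C alone gave q = 0.335. Of 14 RGS proteins 5 were higher and 1, *Rgs16*, was lower, against 3 and 2 with the length trend removed, and *Rgs8* had 8.1, 14.7 and 10.7 CPM at ZT10 and 72.5, 73.4 and 38.6 CPM at ZT14 (log2 difference 2.46, SE 0.32, q = 6.43e-05). The RGS median of 0.22 was -0.10 with the length trend removed and -0.02 with replicate C alone at ZT14.

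Among receptors and channels that set the excitability of neurons, the genes that passed the test were mostly higher, in a share of each list that is to be read against the 9.31% of all tested genes that were higher. Of 9 AMPA and kainate receptor subunits 6 were higher and 0 lower, against 2 and 0 with the length trend removed, with *Gria3* at 14.1, 15.6 and 29.4 CPM at ZT10 and 91, 71.6 and 82.7 CPM at ZT14 (log2 difference 2.05, SE 0.31, q = 0.000243) and *Gria1* at 258, 221 and 273 CPM at ZT10 and 470.2, 462 and 512 CPM at ZT14 (log2 difference 0.94, SE 0.17, q = 0.000882). *Gria4* was not called (log2 difference -0.07, q = 0.859), and its replicates overlapped. Of 14 GABA-A receptor subunits 4 were higher and 0 lower, against 1 of each with the length trend removed, with *Gabra4* at 25.4, 36.8 and 39.4 CPM at ZT10 and 98.4, 90.2 and 97 CPM at ZT14 (log2 difference 1.49, SE 0.38, q = 0.0121). Of 8 genes of GABA synthesis and chloride transport 1 was higher and 1 lower, and the median was -0.19. Removing the length trend left 0 higher and 4 lower, with a median of -0.64. *Abat*, which breaks GABA down, had 428, 366 and 359 CPM at ZT10 and 829.9, 677 and 729.9 CPM at ZT14 (log2 difference 0.96, SE 0.25, q = 0.0132) and was no longer called once that trend was removed (log2 difference 0.52, q = 0.177), and *Gad2*, which makes it, had 573, 527 and 598 CPM at ZT10 and 469, 429.8 and 325 CPM at ZT14 (log2 difference -0.47, SE 0.15, q = 0.0442). The median of the GABA-A subunits, 0.41, was -0.06 in the recovered reads with the length trend removed.

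Of 37 voltage-gated potassium channel genes 9 were higher and 0 lower, with a median of 0.91. *Kcna4*, an A-type channel, had 3.06, 1.34 and 1.94 CPM at ZT10 and 25.2, 38.9 and 12.6 CPM at ZT14 (log2 difference 3.60, SE 0.80, q = 0.00475). Of 13 inward rectifiers 4 were higher and 0 lower, with *Kcnj16* at 5.97, 5.95 and 11.2 CPM at ZT10 and 22.3, 21.3 and 25.1 CPM at ZT14 (log2 difference 1.57, SE 0.31, q = 0.00217), and of 21 calcium-activated and leak channels 2 were higher (*Kcnk2* and *Kcnk9*) and 0 lower, a share near that of all genes. The recovered reads called 2 inward rectifiers higher in place of 4. With the length trend removed 2 voltage-gated potassium channels were higher and 1 lower, and 1 gene of each of the other 2 lists was higher.

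Of 26 voltage-gated calcium channel genes 8 were higher and 1 lower, against 5 and 1 with the length trend removed, among them *Cacna1e*, of the R-type current, with 19.1, 18.2 and 22.8 CPM at ZT10 and 66.2, 81.9 and 61.4 CPM at ZT14 (log2 difference 1.80, SE 0.31, q = 0.000633). *Cacng7*, on chromosome 7, had 0.0971, 0.0434 and 0.0944 CPM at ZT10 and 5.61, 6.94 and 6.51 CPM at ZT14. It starts at 3332955, just beyond the interval of *Myadm* that was nearly empty at ZT10 and ZT6, and its ZT6 mean was 0.405 CPM. The part of that stretch in the calls of this list was not tested. Of 13 sodium and pacemaker channels 4 were higher and 0 lower, against 2 and 3 with the length trend removed, with *Scn8a* at 48.6, 52.1 and 80.0 CPM at ZT10 and 206, 135 and 173 CPM at ZT14 (log2 difference 1.51, SE 0.27, q = 0.000885). *Scn4b*, a sodium channel subunit on the striatal list, had 14.4, 8.38 and 13.4 CPM at ZT10 and 338, 443 and 49.5 CPM at ZT14 (log2 difference 4.52, SE 0.77, q = 0.000632). The median of the sodium and pacemaker list, 0.33, was -0.11 in the recovered reads with the length trend removed.

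Genes of small GTPase signalling, of synaptic vesicles and of the actin cytoskeleton were called in different proportions. Of 116 regulators of small GTPases 33 were higher and 0 lower, with a median of 0.73, against 9.31% of all tested genes that were higher. *Kalrn*, a guanine nucleotide exchange factor of dendritic spines, had 20.2, 22.6 and 33.2 CPM at ZT10 and 143, 132 and 197 CPM at ZT14 (log2 difference 2.63, SE 0.30, q = 1.69e-05), and *Srgap3*, a GTPase-activating protein, had 105, 81.2 and 95 CPM at ZT10 and 297, 235 and 250.5 CPM at ZT14 (log2 difference 1.48, SE 0.16, q = 1.19e-05). *Rgl1* had 17.8, 21.5 and 20.5 CPM at ZT10 and 69.9, 65.2 and 65.4 CPM at ZT14 (log2 difference 1.75, SE 0.21, q = 2.96e-05), and none of the 3 overlapped between the timepoints. The median length of this list was 5296 bases, and 15 of its genes were higher and 8 lower with the length trend removed.

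Of 28 genes of synaptic vesicle release 11 were higher and 2 lower, with *Sv2b* at 28.5, 27.4 and 41.2 CPM at ZT10 and 157, 138 and 219.5 CPM at ZT14 (log2 difference 2.41, SE 0.36, q = 0.0002) and *Cplx2*, a complexin, at 72.3, 100.0 and 104 CPM at ZT10 and 332, 304 and 250.2 CPM at ZT14 (log2 difference 1.68, SE 0.34, q = 0.00223). With the length trend removed 5 were higher and 4 lower. Of 61 actin regulators 9 were higher and 7 lower, a ratio near that over all genes (1764 to 1425), and 6 were higher and 8 lower with the length trend removed, where the median of 0.35 became -0.16. *Cyfip2*, of the WAVE complex, had 202, 208 and 221 CPM at ZT10 and 592, 528 and 606 CPM at ZT14 (log2 difference 1.45, SE 0.19, q = 5.25e-05), and *Marcksl1*, an actin-bundling protein, had 83.1, 124 and 98 CPM at ZT10 and 29.5, 44.2 and 26.5 CPM at ZT14 (log2 difference -1.61, SE 0.25, q = 0.000352).

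Calls among markers of glia and other cell types were read against shares of 9.31% higher and 7.52% lower over all tested genes. The endothelial counts, and the 1 microglia and 1 ependymal marker that were lower, lay near those shares. Of 12 oligodendrocyte markers 6 were higher and 0 lower, with a median of 1.02. Of 5 oligodendrocyte precursor markers 2 were higher, of 12 astrocyte markers 3 were higher and 2 lower, of 10 microglia markers 2 were higher and 1 lower, and of 12 endothelial and mural markers 1 was higher and 1 lower. The astrocyte and endothelial medians, 0.35 and 0.24, were -0.03 and -0.23 in the recovered reads with the length trend removed. Of 8 ependymal and tanycyte markers 1 was lower. In the recovered reads 0 ependymal markers were lower, 0 endothelial markers higher and 2 astrocyte markers higher. Removing the length trend left 5 oligodendrocyte, 1 precursor, 1 astrocyte, 1 microglia and 0 endothelial markers higher. None of 10 markers of neighbouring hypothalamic neurons (2 higher and 0 lower at an unadjusted p under 0.05) and none of 3 red blood cell markers (0 at an unadjusted p under 0.05) was called by edgeR. Of 10 telencephalic excitatory neuron markers 3 were higher and 0 lower, namely *Camk2a*, *Slc17a7* and *Rasgrf2*, and 2 both in the recovered reads and with the length trend removed. *Rasgrf2* had a log2 difference of 1.95 in the counts and -0.22 (q = 0.4) in the recovered reads, while *Tbr1* (log2 difference 0.30, q = 0.79) and *Emx1* (-1.10, q = 0.577) were not called.

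Length and direction went together across the transcriptome. Among genes with a mean of at least 1 CPM, the shortest of 10 equal groups by transcript length reached 1035 bases, and there the median log2 difference was -0.72 and 35.7% of genes were lower and 4.65% higher at ZT14. In the longest group, from 6687 bases, the median was 0.48 and 1.79% were lower and 25.6% higher. Counted genes no longer than the shortest 10% of all tested genes, with no CPM minimum, took between 6.31% and 7.15% of the reads at ZT10. At ZT14 they took between 3.33% and 4.22%. In the shortest and longest of the 10 groups the recovered reads gave medians of -0.29 and 0.40. ZT14 minus ZT18 ran the same way with a smaller span, from -0.24 to 0.37, and ZT10 minus ZT6 ran from 0.01 to -0.19. Of the genes named as called, *Abat*, *Adcyap1r1*, *Btrc*, *Clock*, *Cpe*, *Fosl2*, *Gabra4*, *Kcnk9*, *Mt1*, *Npas2*, *Prokr2*, *Scg5*, *Slc17a7* and *Tef* were not called with the trend removed, and *Cry1*, *Hlf*, *Lhx1*, *Per2* and *Zfhx3*, not called in the counts with the trend left in, were then called lower. The recovered reads did not call *Adcyap1r1*, *Fosl2*, *mt-Co3*, *Rasgrf2* or *Tef*. The source of the length trend was not tested.

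**Figure D4:**
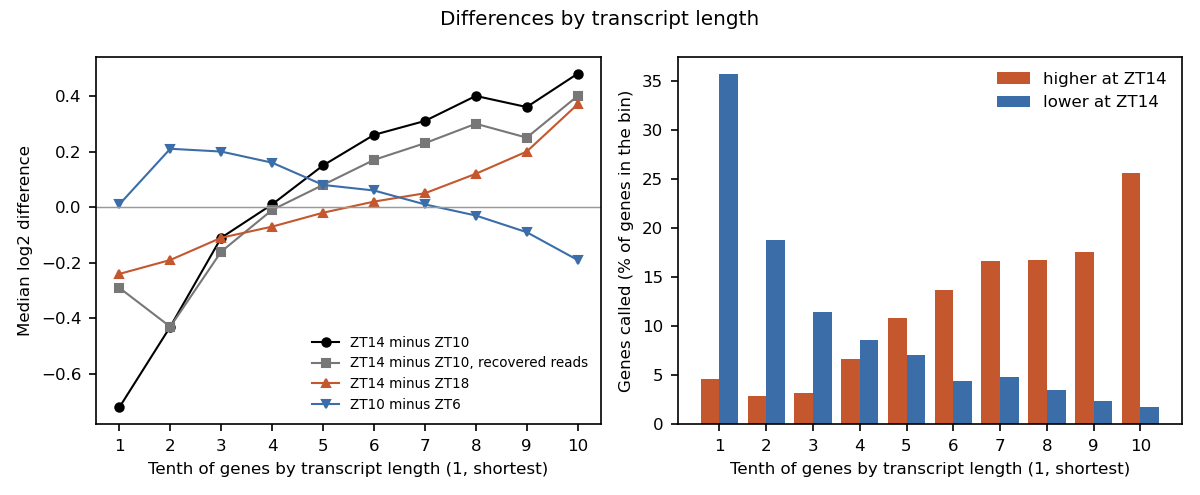
Left, median log2 difference (y axis) over 10 equal groups of genes by transcript length (x axis, 1 the shortest) for ZT14 minus ZT10 (black circles), the same from recovered reads (grey squares), ZT14 minus ZT18 (orange triangles) and ZT10 minus ZT6 (blue triangles). Right, percent of the genes in each group that were higher (orange) or lower (blue) at ZT14 than at ZT10, from 35.7% lower in the shortest to 25.6% higher in the longest.

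Genes that set ZT14 apart from its neighbours on both sides were few. ZT14 differed from ZT18, within its own cluster, at 108 genes (0.57%), and ZT10 from ZT6 at 9 (0.0475%). At 77 genes ZT14 differed from both ZT10 and ZT18 in the same direction, 57 higher and 20 lower, and both comparisons share the ZT14 libraries. These calls were almost all lost when 1 ZT14 library, or ZT18 replicate B or C, was left out. The count was 0 without ZT14 replicate A, 1 without replicate B, 2 without replicate C and 0 without ZT18 replicate B or C. It was 1 once the length trend was removed. The reason for these losses was not tested. The values are therefore given as levels.

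*Egr1* had a mean of 21.3 ± 8.89 CPM (SD, n = 3) at ZT10, 78 ± 17.5 at ZT14 and 19 ± 5.05 at ZT18. *Rbfox1*, a neuronal splicing factor, had 61.6 ± 11.3, 240.4 ± 38.3 and 60.6 ± 9.8 CPM. *Synpo*, an actin-binding protein of dendritic spines, had 11.7 ± 4.06, 115 ± 5.01 and 34.8 ± 11.1 CPM. These 3 were at least 3 times as high at ZT14 as at either neighbour. *Rasal1* and *Hipk4* were likewise higher, with log2 differences from ZT10 of 2.02 and 1.84 and from ZT18 of 1.90 and 1.72.

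In the other direction, *Fabp7*, a fatty acid-binding protein of astrocytes, had 162 ± 11.6 CPM at ZT10, 41.2 ± 12.3 at ZT14 and 97.8 ± 4.72 at ZT18. *Ccdc90b* had 59.8 ± 0.429, 26.8 ± 2.97 and 55.7 ± 17.2 CPM. Both were lowest at ZT14 of the 6 timepoints. The other 3 genes named by the same rule were *4933407L21Rik*, *Gm12918* and the mitochondrial tRNA *mt-Tp*, and for *mt-Tp* the recovered reads gave the opposite sign, a log2 difference of 5.45 against -2.54.

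**Figure D5:**
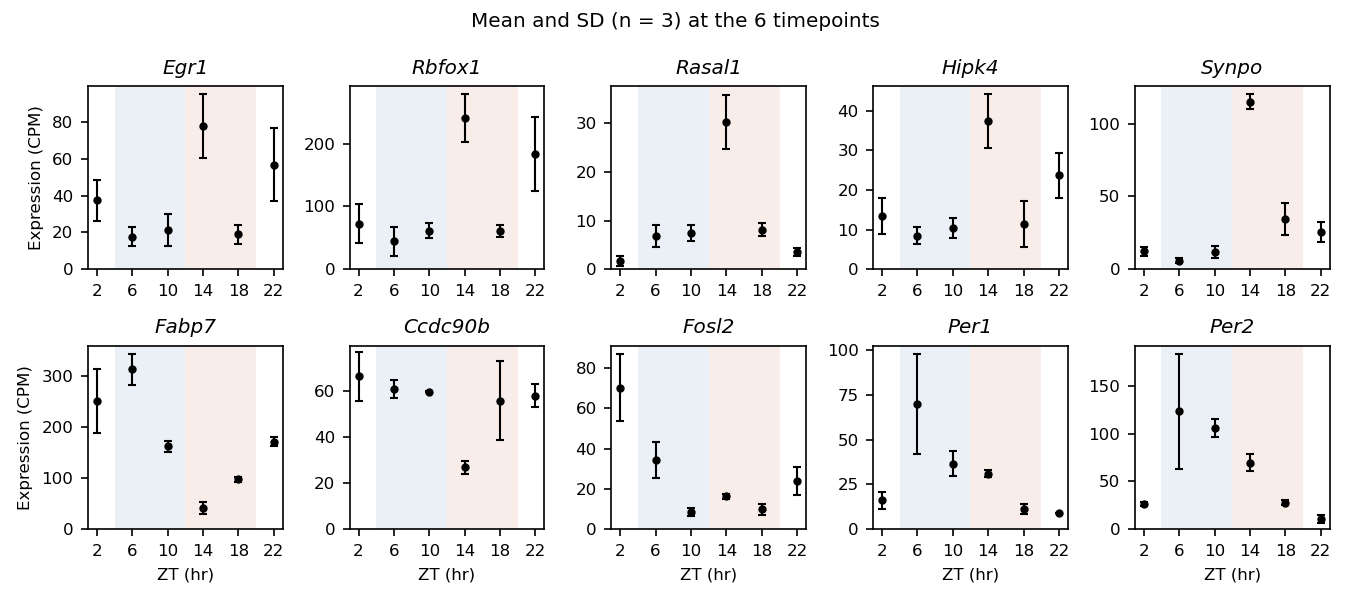
Mean expression in CPM (y axis, from 0) at the 6 timepoints (x axis, ZT in hr) of 10 genes, with error bars of 1 SD over 3 replicates, and with the ZT6 and ZT10 cluster shaded blue and the ZT14 and ZT18 cluster shaded orange. *Egr1*, *Rbfox1*, *Rasal1*, *Hipk4* and *Synpo* had their highest mean at ZT14 and *Fabp7* and *Ccdc90b* their lowest.

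A constant offset between the 2 clusters cancels when ZT18 minus ZT6 is subtracted from ZT14 minus ZT10, so this contrast asks whether the step across lights off differs from that between the outer timepoints. It was called at 2 of 18941 genes (0.0106%) by edgeR, with 2584 (13.6%) at an unadjusted p under 0.05, and by DESeq2 at 523. *Fosl2*, an AP-1 factor, was higher by a log2 of 2.73 in this contrast (SE 0.42, q = 0.0483), with 9.61, 6.21 and 9.91 CPM at ZT10 and 15.8, 17.6 and 15.2 CPM at ZT14, and with means of 34.2 ± 9.01 CPM at ZT6 and 9.77 ± 2.81 at ZT18. It fell from ZT6 to ZT10 (log2 difference -2.00, q = 0.02) and was higher again at ZT14 (log2 difference 0.92, SE 0.30, q = 0.041), a call that held in 10 of 18 fits with a replicate omitted and not in the recovered reads (q = 0.101). *AU021092* had a log2 of -7.85 in this contrast (q = 0.0483) and was nearly absent at ZT6 alone, with a mean of 0.0158 CPM, while its ZT14 and ZT10 values overlapped (log2 difference -0.14, q = 0.912).

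The clock genes nearest to a call in that contrast were *Per1*, with a log2 of 2.39 (SE 0.41, q = 0.0618), and *Hlf*, with 1.04 (q = 0.0747). *Avp* had 1.64 (q = 0.134) and *Prok2* 3.11 (q = 0.0881). The means of *Avp* were 454 ± 24 CPM at ZT6, 322 ± 76.8 at ZT10, 54.5 ± 13 at ZT14 and 24.8 ± 3.68 at ZT18, each lower than the one before. The median of this contrast was 1.07 over the 11 clock repressors, with 0 called, and -0.42 over the 77 cytosolic ribosomal proteins, with 0 called.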

How the data were processed

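RNA from laser-captured SCN was sequenced at 6 timepoints, with 3 biological replicates per timepoint. The authors aligned reads to mm10/GRCm38 with GSNAP and counted them per gene with HTSeq 0.5.4p1. They deposited counts for 30031 genes, with the 3 technical replicates of each biological replicate combined. They also deposited a table of 31077 genes divided by DESeq2 size factors, here treated as a normalized signal, from which whole reads were recovered (100% of values whole within 0.01 reads). The tables share 26118 genes and no per-sample column was left unused. The header of the count table is shifted against its columns, which were taken by number.

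The counts were tested with edgeR 4.0.16 in R 4.3.3 (TMM, quasi-likelihood F-test, 1 mean for each of the 6 timepoints, all 18 replicates sharing the dispersion), with Benjamini–Hochberg q values over the 18941 genes that had a read in more than 6 replicates. Symbols were found for 97.2% of identifiers. The script was tested on simulated counts. Alternatives were DESeq2 1.42.0, other normalizations and filters, recovered reads, fewer libraries, removal of length or GC trends, a fold threshold of 1.5, a replicate block and leaving out each replicate.

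Named genes were the 10 highest and 10 lowest called protein-coding genes (at least 10 CPM, replicates apart, called from both tables), all genes of the clock lists, up to 3 genes of each other list by p, members needed to account for a count of 5 or fewer, and up to 5 genes per direction of the contrasts with ZT6 and ZT18, and the 3 genes per direction that differed most between the tables. *Camk2* genes other than *Camk2a*, *Fos*, *Gria4*, *Vipr2*, *Lhx1*, *Zfhx3*, *Tbr1*, *Emx1* and *Pdyn* were named after their values were seen. The comparison and the lists were chosen with earlier results of these data known. A few members of these lists are not reported here.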

Additional observations from a re-analysis of the deposited data

Results flagged for a closer look

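For 2 genes the step from ZT10 to ZT14 differed from that between ZT6 and ZT18, by edgeR's test of the difference itself. *Fosl2* was higher by a log2 of 2.73 (q = 0.0483), with its lowest mean of the 6 timepoints at ZT10. *AU021092* had a log2 of -7.85 (q = 0.0483), with its lowest mean at ZT6. Neither was called in the recovered reads, where 0 genes passed in edgeR and 580 in DESeq2.

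Signal also appeared in genes that are held in the normalized table and not in the count table. Of 2171 such genes tested from recovered reads, 340 were called between ZT14 and ZT10, 240 higher and 100 lower. *Rad9a*, a checkpoint protein, had 0.176 ± 0.0904 CPM (SD, n = 3) at ZT10 and 30.2 ± 13.6 CPM at ZT14, and *Ndufb2*, of complex I, had 523 ± 34.9 CPM at ZT10 and 160.2 ± 4.80 CPM at ZT14.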

How the results depend on the processing

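For ZT14 minus ZT10 the count of genes, 3189, was 5059 with only the 6 libraries, 4842 from recovered reads with DESeq2, 999 against a fold of 1.5, 888 with replicate C as the only ZT14 library, and between 1990 and 3938 with 1 replicate left out. The contrast less ZT18 minus ZT6, 2 genes, gave 523 with DESeq2, 580 from recovered reads with DESeq2, 39 with no filter, 12 without the GC trend, 5 without the length trend, between 0 and 96 with 1 replicate left out (96 without ZT6 replicate A), and 0 with DESeq2 size factors, upper-quartile normalization, recovered reads (with or without the length trend), only 12 libraries, a fold of 1.5 or replicate C alone. Genes apart from both ZT10 and ZT18, 77, numbered 435 with DESeq2, 404 from recovered reads with DESeq2, 45 with upper-quartile normalization, 27 with only 12 libraries, 1 without the length trend in either table, 0 against a fold of 1.5 or with replicate C alone, and between 0 and 140 with 1 replicate left out (140 without ZT6 replicate C). With the replicate letter as a block the counts were 3038, 2 and 48. Same-lettered replicates did not deviate together (correlations of -0.057, -0.041 and 0.013, with 6 of 18 closest to their own letter), so the letters were not used as pairs. Without the length trend the median was -0.05 for immediate early genes, -0.15 for cAMP genes, -0.10 for RGS proteins, -0.16 for actin regulators and 0.01 for neighbouring hypothalamic neurons, and *Slc4a8* had a log2 of -0.01. In recovered reads without that trend the medians were -0.14 (clock activators), -0.26 (immediate early genes), -0.04 (cAMP), -0.03 (RGS), -0.09 (photic pathway), -0.06 (GABA-A), -0.11 (sodium and pacemaker), -0.20 (actin), -0.15 (chaperones), -0.13 (glucocorticoid), -0.03 (astrocyte) and -0.23 (endothelial), the last -0.00 with DESeq2, and the RGS median was -0.02 with replicate C alone. Single genes that reversed in the recovered reads, with edgeR, with DESeq2 and without the length trend, were *Atp6v0a4* (-1.89, -2.01 and -2.19), *Gm10163* (11.44, 10.40 and 11.22), *Gm14200* (10.36, 9.33 and 9.80) and *mt-Tp* (5.45, 5.43 and 0.63), and in those reads without the length trend *Slc4a8* (-0.16) and *Tef* (-0.14) reversed. *Inafm2* (3.13 in the counts, -0.39 in the recovered reads and -0.68 there without the length trend) and *Igsf5* (0.55 and -3.27) also changed sign without being called in the counts. The cause of these changes was not tested. Alternatives with replicate C alone, DESeq2 or the length trend in recovered reads were chosen after seeing the data. Depth was higher at ZT14 than at ZT10 in every replicate, and batch and time of day cannot be told apart.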
